A study of Homo sapiens and Mus musculus with 17 samples.

Results

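HEK293T, a human embryonic kidney cell line, was sequenced with and without the core of endoplasmic reticulum (ER)-associated degradation, and the 6 libraries of both knockouts were pooled and compared with the 3 wild-type (WT) libraries. The groups were chosen by genotype label only: 3 libraries are labelled HRD1 KO, 3 SEL1L KO and 3 WT, which gives 9 of the 17 libraries of the series. The other 8 come from mouse brown adipose tissue (BAT). By the study's methods, the knockout cells were made with CRISPR/Cas9, and the WT cells had received the plasmid lacking a guide RNA. All HEK293T cells shared the same serum-containing medium, and the sources used here do not say whether a knockout line is 1 clone or what the replicate numbers 1 to 3 stand for. The p-values below therefore measure the spread between these libraries, which may be technical.

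SEL1L is a membrane adaptor that brings misfolded ER proteins to HRD1, the ubiquitin ligase encoded by SYVN1. Marked proteins are pulled out of the ER and degraded by the proteasome. When misfolded proteins gather in the ER, the sensors IRE1, ATF6 and PERK start the unfolded protein response (UPR), which raises the transcription of ER chaperones, folding enzymes and degradation factors. The question addressed was which transcripts moved the same way whichever of the pair was targeted.

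Expression was given as FPKM, the fragments of a gene per kilobase of its length and scaled to the fragment total of its library, so levels can be compared between genes. Of 62714 genes in the table, 15796 reached an FPKM of 1 in at least 3 of the 9 libraries and were tested. The number of reads per library cannot be known from such values. Relative depth, estimated from the size of the smallest steps in the values, ran from 0.735 to 1.35 of that of WT replicate 2. Of 12 genes of the embryonic kidney lineage, 11 reached an FPKM of 1 in some library, as did 5 of 9 neuronal genes that HEK293 cells are known to carry. One of these, the neurofilament gene NEFM, set 2 libraries apart: it stood at 0.34 and 0.11 FPKM in SEL1L KO replicates 1 and 2 but at 50.89 in SEL1L KO replicate 3, at 23.02 to 39.98 in WT and at 50.21 to 104.23 under the HRD1 KO label. INA, a further neurofilament gene, was ordered alike, at 0.51, 0.19 and 13.75 in SEL1L KO against 4.41 to 9.56 in WT. The part of these libraries in the results was not tested beyond leaving each out. An FPKM of 1 was reached by 0 of 7 adipocyte markers, 2 of 8 leukocyte markers and 3 of 9 fibroblast markers. The summed fibroblast markers lay at 46.1 to 92.3 in WT, at 41.4 to 105.57 under the HRD1 KO label and at 46.4 to 71.8 in SEL1L KO.

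The targeted genes were read first. SEL1L had FPKM values of 1.82, 3.36 and 2.59 in SEL1L KO replicates 1 to 3 and of 4.39, 8.74 and 12.85 in WT, so each SEL1L KO library lay below each WT library. In the libraries labelled HRD1 KO, SEL1L stood at 3.79, 19.27 and 24.06. Over the 6 knockout libraries its log2 fold change was -0.50 (SE 0.69), and an exact two-sided permutation test within replicate numbers gave p = 0.593, where 27 arrangements allow no p below 0.037. That change ran from -0.92 without HRD1 KO replicate 3 to -0.06 without SEL1L KO replicate 3. SYVN1 read 22.47, 18.48 and 19.83 under the HRD1 KO label, 28.93, 28.36 and 25.92 in SEL1L KO, and 16.95, 16.7 and 16.92 in WT. No library labelled HRD1 KO was below WT in SYVN1 mRNA, so that label is not checked by its own transcript and these libraries are called by their label throughout. The pooled SYVN1 change was 0.49 (SE 0.17), with an exact permutation p of 0.0741 and an adjusted p of 0.962 by limma.

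A small set of ER genes carried the shared response. By limma on log2(FPKM + 0.1), with the replicate number as a block and an adjusted p under 0.05, 19 genes were called higher in the knockouts (0.120% of the genes tested) and 1 gene was called lower (0.00633%). Of the 19, 13 encode chaperones, folding enzymes, lectins or degradation factors of the ER. They come from 4 lists, of chaperones, disulfide isomerases, the calnexin cycle and the HRD1 complex. These had 18, 20, 15 and 22 members among the 15796 genes tested. The lists were written with earlier results of these data known, so this count is a description. In each of the 19, all 6 knockout libraries lay above the WT library of the same number (2.67% of all genes tested did) and above all 3 WT libraries (0.589% did). The 19 were chosen on these same values, so this separation and their summed share below are a description, not further support. ENSG00000262692, ENSG00000229273 and LINC02761, at or near 0 in WT, were tested only through their knockout values. Together the 19 genes took 0.192% to 0.289% of all FPKM in WT, 0.691% to 1.04% under the HRD1 KO label and 0.550% to 0.784% in SEL1L KO. At an unadjusted p under 0.05, 350 genes (2.22%) were higher and 425 (2.69%) lower, and the median change over all genes was -0.06. Without replicate 3 altogether 7 genes were called higher, and without any 1 library 10 to 20 (20, 16 and 11 without SEL1L KO replicates 1, 2 and 3). Since each library holds the RNA of a whole culture, a change in every cell and a change in some of the cells cannot be told apart.

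**Figure D1:**
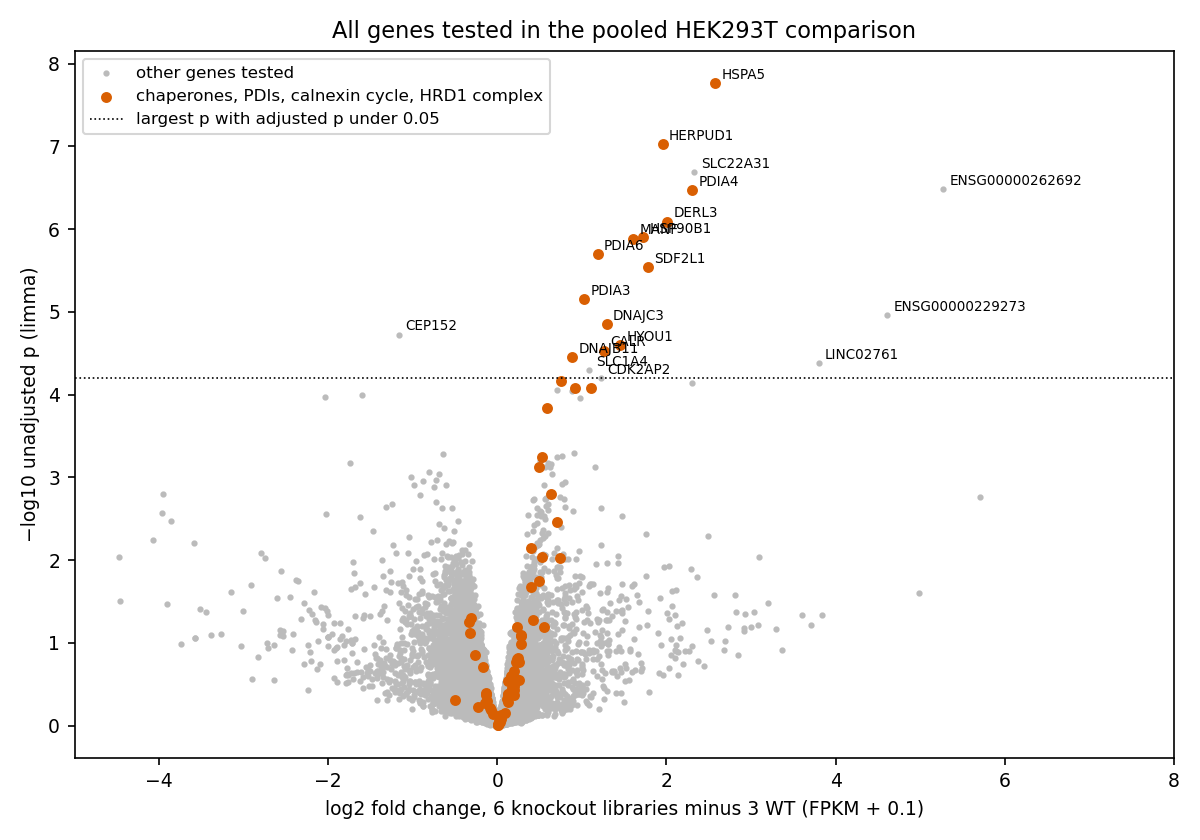
Each point is one of the 15796 genes tested, with the log2 fold change of the 6 knockout libraries against 3 WT on the x axis and the -log10 of the unadjusted limma p on the y axis. Orange points are members of the lists of ER chaperones, disulfide isomerases, the calnexin cycle and the HRD1 complex, and the dotted line is the largest p that was called. Above the line, 19 genes lie to the right and CEP152 alone lies to the left; the positions of ENSG00000262692, ENSG00000229273 and LINC02761, at or near 0 in WT, depend on the 0.1 added.

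ER chaperones led the response. HSPA5 (BiP), the Hsp70 of the ER lumen that also holds the UPR sensors inactive, lies on chromosome 9 of GRCh38 from 125234853 to 125241382 on the minus strand. It had FPKM values of 193.94, 369 and 157.78 in WT, 1246.66, 2845.7 and 1067.59 under the HRD1 KO label, and 919.93, 1886.23 and 868.32 in SEL1L KO. Replicate 2 was the highest in each group, and within a replicate number the rise was 4.74- to 7.71-fold. The log2 fold change was 2.57 (SE 0.15, 95% interval 2.24 to 2.91, limma adjusted p = 0.000269), the smallest p of all genes. HSP90B1 (GRP94), the ER Hsp90, stood at 337.61, 503.9 and 300.89 in WT, at 1112.25, 1877.19 and 1392.78 under the HRD1 KO label, and at 867.37, 1250.58 and 1083.03 in SEL1L KO. The lowest knockout library was thus 867.37 and the highest WT library 503.9, and the log2 fold change was 1.72 (SE 0.16, limma adjusted p = 0.00257). HYOU1 (GRP170), a large Hsp70 relative that acts as nucleotide exchange factor for BiP, rose from 44.42, 56.15 and 62.02 in WT to 142.75, 174.92 and 229.4 under the HRD1 KO label and 87.24, 114.11 and 178.88 in SEL1L KO. Its log2 fold change was 1.45 (SE 0.19, limma adjusted p = 0.0266).

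Partners of BiP moved with it. DNAJB11 and DNAJC3 are J-domain proteins that bring BiP to its clients. DNAJC3 had 6.42, 9.76 and 6.79 FPKM in WT and 12.55 to 23.76 in the 6 knockout libraries (log2 fold change 1.29, SE 0.16). DNAJB11 had 43.41, 48.13 and 63.93 in WT and 71.66 to 115.55 in the knockouts, the smallest called rise at 0.88 (SE 0.12). SDF2L1, a subunit of DNAJB11 complexes, went from 107.57, 145.16 and 108.3 in WT to 612.6, 385.77 and 344.77 under the HRD1 KO label and 374.56, 357.85 and 428.22 in SEL1L KO (log2 fold change 1.78, SE 0.18). MANF, a secreted BiP-binding protein, went from 151.06, 182.04 and 196.6 to 519.12, 504.21 and 508.87 and to 671.14, 619.22 and 423.64 in the same order of groups (log2 fold change 1.61, SE 0.15). In all these genes the lowest knockout library stood above the highest WT library. The fixed list of ER Hsp70 and Hsp90 chaperones and their partners had 18 members tested. Of these, 7 were called higher (0.120% of all genes tested were) and 0 lower (0.00633% were). The list had a median log2 change of 0.73, against -0.06 over all genes tested. The further members, CRELD1, CRELD2 and MYDGF, had changes of 0.91, 1.10 and 0.59 and did not pass (limma adjusted p = 0.0548, 0.0548 and 0.0752). The remaining 8 lay between -0.23 and 0.55, among them the J-protein DNAJB9 at 0.55 and SIL1, the other exchange factor of BiP, at 0.24.

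**Figure D2:**
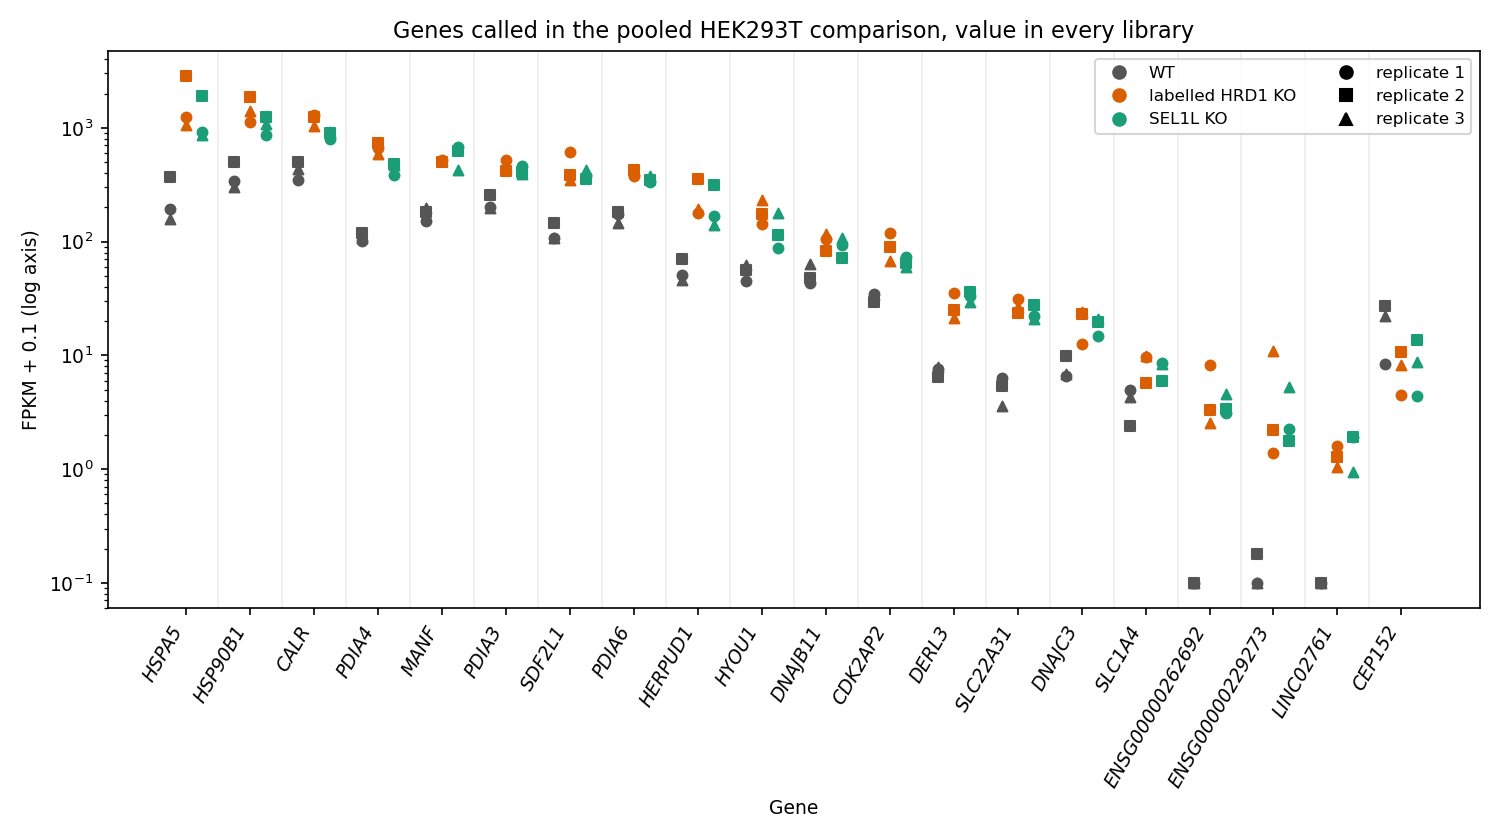
FPKM plus 0.1 (log axis) of the 20 called genes in each of the 9 libraries, with WT in grey, libraries labelled HRD1 KO in orange, SEL1L KO in green, and the marker shape giving the replicate number. Each gene but CEP152 has its 6 knockout points above its 3 WT points; for CEP152, WT replicate 1 at 8.22 falls among the knockouts.

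Disulfide isomerases, which form and reshuffle the disulfide bonds of secreted proteins, had 20 members tested, with 3 called higher, 0 called lower and a median of 0.20. Over all genes tested, 0.120% were called higher and 0.00633% lower. PDIA4 (ERp72) had 101.84, 119.04 and 107.65 FPKM in WT, 658.6, 734.01 and 589.43 under the HRD1 KO label and 380.54, 484.01 and 470.67 in SEL1L KO. Its 3 groups did not overlap, and the pooled log2 fold change was 2.30 (SE 0.19, limma adjusted p = 0.00106). PDIA6 (P5), which also binds IRE1 and PERK, rose from 173.13, 181.89 and 145.36 to 333.95 to 424.55 over the 6 knockout libraries (log2 fold change 1.19, SE 0.12). PDIA3 (ERp57), the partner of calnexin and calreticulin, rose from 201.05, 254.83 and 195.69 to 395.32 to 516.01 (1.03, SE 0.12). P4HB, the founding isomerase, was just short of the threshold, with 213.99 to 264.91 in WT, 317.58 to 527.18 in the knockouts, and a change of 0.75 (limma adjusted p = 0.0513). The transmembrane TMX3 and the oxidase ERO1A, which recharges these enzymes, had changes of -0.34 and -0.33 and were not called.

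Of the calnexin cycle, which folds and inspects N-glycoproteins, 1 of 15 members tested was called (0.127% of all genes tested were, in either direction). CALR, the soluble lectin calreticulin, had 346.73, 501.39 and 433.84 FPKM in WT, 1290.69, 1241.26 and 1044.67 under the HRD1 KO label and 790.64, 904.59 and 912 in SEL1L KO. All the knockout values exceeded those of WT, by 1.26 on the log2 scale (SE 0.17, limma adjusted p = 0.0289). CANX, its membrane-bound counterpart calnexin, was spread more widely, at 243.56, 346.56 and 278.75 in WT, 289.89, 597.8 and 948.05 under the HRD1 KO label and 289.31, 408.45 and 615.69 in SEL1L KO. These groups overlapped, and the change of 0.74 (SE 0.23) was not called, running from 0.38 without WT replicate 3 to 0.98 without WT replicate 1. The median of the list was 0.17. The list of major histocompatibility complex class I genes, with 12 tested, had 2 called members, but these were CALR and PDIA3 again.

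Within the degradation machinery itself, 2 of 22 members tested were called higher (0.120% of all genes tested were) and 0 lower (0.00633% were), with a list median of 0.21. HERPUD1, a membrane protein that organises the HRD1 complex, is on chromosome 16 of GRCh38, 56932142 to 56944864, plus strand. It read 50.32, 69.42 and 45.55 in WT, 176.24, 353.41 and 193.99 under the HRD1 KO label, and 167.97, 310.99 and 138.69 in SEL1L KO. Every knockout library was 3.04- to 5.09-fold above the WT library of its number (log2 fold change 1.96, SE 0.14, limma adjusted p = 0.000735). DERL3, the inducible derlin of the channel through which proteins leave the ER, rose from 7.47, 6.38 and 7.84 to 35.51, 24.76 and 21.05 under the HRD1 KO label and to 32.81, 35.81 and 29.22 in SEL1L KO (2.01, SE 0.18, limma adjusted p = 0.00213). Its relatives DERL1 and DERL2 had changes of 0.19 and 0.24 and were not called. The other members lay between -0.50 and 0.49, with SELENOS, which recruits the VCP ATPase, at 0.49 and the lectins OS9 and ERLEC1 at 0.26 and 0.39. Of 18 other ER ubiquitin ligases and their partners, 0 were called, and 0 had an unadjusted p under 0.05.

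The promoters of the called genes were searched for the letters that UPR factors are known to bind. RefSeq promoter windows, 250 bases before to 50 after a start (GRCh38.p14), were matched for 15 of the 19 genes called higher. The counts below are of genes, a gene counting if any of its windows (at most 2) holds the letters, whereas the background shares are of single windows. The ER stress response element ERSE, CCAAT, 9 free bases and CCACG on either strand, occurred in 4 of the 15 genes (CALR, HSP90B1, HSPA5 and PDIA6), against 0.0769% of all 35116 promoters and 0.113% of those of genes tested. ERSE-II, ATTGG, 1 free base and CCACG, occurred in another 3 (HERPUD1, HYOU1 and SDF2L1), against 0.0541% and 0.0944%. HSP90B1 held 2 ERSE matches, and CRELD2, which was not called, held 1. Whether these elements were first defined on promoters of the same genes was not looked at, so the counts are a description. CCAAT, which is part of both motifs on one strand or the other, was found in 14 of the 15 against 34.6% of all promoters and 34.7% of those of genes tested, and CCACG in 12 of the 15 against 38.1% and 48.4%. The XBP1-type letters TGACGTGG, which can share CGTGG with ERSE-II, were found in HYOU1 alone of the 15 (0.729% of all promoters, 0.844% of those of genes tested) and also in NANS, which was not called. The amino acid response letters TGATG, 1 free base and AA were found in HERPUD1 and SLC1A4 (3.62% and 1.95%). The matching stretches are shown because 7 of the 15 genes hold one of the rare elements. They read 5′ to 3′ along the gene's strand, with capitals marking the 2 fixed ends of each element, and a match is a description and not a shown binding site. The HSP90B1 stretches lie in an annotated exon.
HSPA5 (chr9:125241383-125241417, minus strand): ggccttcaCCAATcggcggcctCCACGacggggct
HSP90B1 (chr12:103930211-103930239, plus strand): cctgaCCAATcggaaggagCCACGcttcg
HSP90B1 (chr12:103930316-103930344, plus strand, element reversed): gggtgCGTGGtgcggcgcgATTGGtgggt
PDIA6 (chr2:10812845-10812879, minus strand): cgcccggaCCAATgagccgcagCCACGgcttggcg
CALR (chr19:12938376-12938410, plus strand, element reversed): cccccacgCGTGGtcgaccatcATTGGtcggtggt
HERPUD1 (chr16:56932017-56932043, plus strand): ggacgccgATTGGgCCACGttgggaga
SDF2L1 (chr22:21642106-21642132, plus strand, element reversed): ctcggaagCGTGGaCCAATcaaaaccc
HYOU1 (chr11:119057372-119057398, minus strand, element reversed): ccccgtgaCGTGGtCCAATcccaggcc
HYOU1 (chr11:119057266-119057292, minus strand, element reversed): gcctgggaCGTGGtCCAATgagtacgc

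The genes with and without the elements overlapped in the size of their rise. Among the called genes holding ERSE, the log2 fold changes ran from 1.19 (PDIA6) to 2.57 (HSPA5), and among called genes holding ERSE-II from 1.45 (HYOU1) to 1.96 (HERPUD1). PDIA4 at 2.30 and MANF at 1.61 held neither in this window.

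Genes outside the ER folding lists also rose. SLC22A31, an orphan member of the organic ion transporter family (chromosome 16, 89195761 to 89201651, minus strand), stood at 6.23, 5.25 and 3.51 FPKM in WT, 30.93, 23.23 and 26.47 under the HRD1 KO label and 21.9, 27.33 and 20.77 in SEL1L KO. All knockout libraries lay above all WT libraries, and the log2 fold change of 2.33 (SE 0.18, limma adjusted p = 0.00106) had the p next after HERPUD1. CDK2AP2, named for its kinship to a CDK2-binding protein, rose from 34.42, 29.13 and 33.86 to 117.88, 88.51 and 66.73 and to 72.64, 64.17 and 59.96 (1.23, SE 0.18). It was the last gene within the threshold (limma adjusted p = 0.0494). SLC1A4, a neutral amino acid transporter, rose from 4.85, 2.27 and 4.18 to 5.58 to 9.81 over the knockouts (1.09, SE 0.16, limma adjusted p = 0.0423). It was the only called member of the amino acid transporters, of which 10 were tested with a median of 0.22 (0.127% of all genes tested were called).

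Noncoding or poorly characterised loci made up the rest. ENSG00000262692, a long noncoding RNA on chromosome 17 (3721628 to 3722488, plus strand) that lies antisense within ITGAE and overlaps none of its exons, was listed at 0 in all 3 WT libraries. It had 8.12, 3.23 and 2.43 FPKM under the HRD1 KO label and 3, 3.27 and 4.46 in SEL1L KO. LINC02761 lies on chromosome 11 (76210956 to 76216025, minus strand), 220 bases from WNT11 on the same strand. It was likewise listed at 0 in WT and had 1.49, 1.18 and 0.94, then 1.8, 1.82 and 0.84. ENSG00000229273, a processed pseudogene on chromosome 9, was listed at 0, 0.08 and 0 in WT and ran from 1.29 to 10.72 in the knockouts. Its 458 bases match the overlapping gene GLIDR at 100% identity and further copies at 98.5%, so its reads are shared by estimate and its value is uncertain. No fold is given for these 3 genes because of the zeros. All 3 were below an FPKM of 1 in every WT library, so they were tested only through their knockout values. Their p-values depend on the 0.1 added and are a description. The limma adjusted p was 0.00106 for ENSG00000262692, 0.0145 for ENSG00000229273 and 0.0362 for LINC02761.

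**Figure D3:**
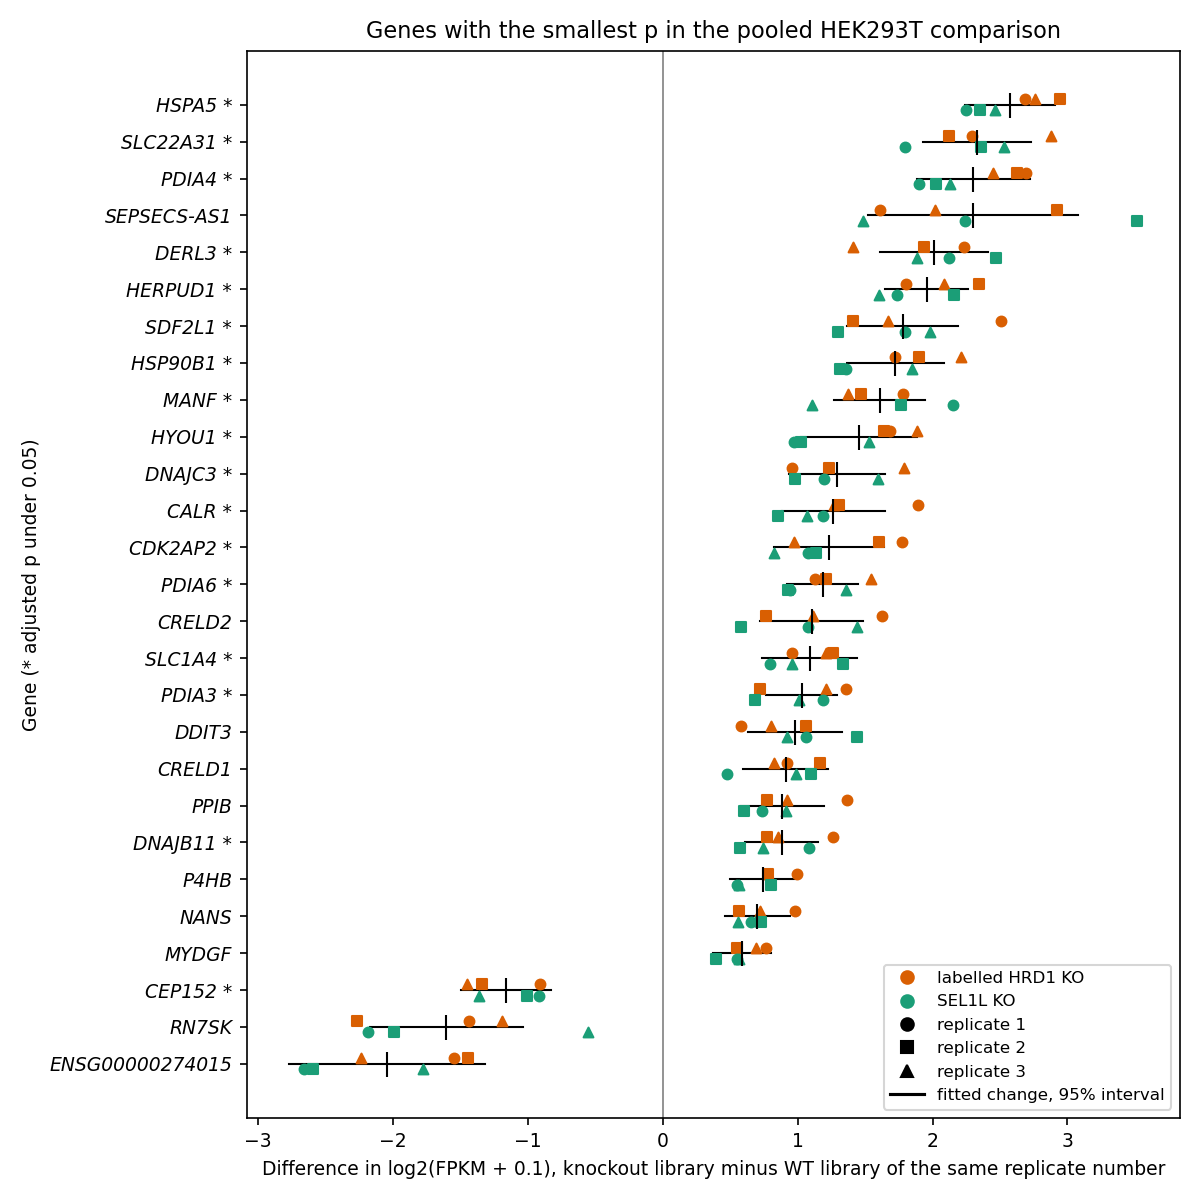
Differences in log2(FPKM + 0.1) between each knockout library and the WT library of the same replicate number (x axis), for 27 of the 30 genes with the smallest p, leaving out the 3 genes at or near 0 in WT; colours give the knockout, shapes the replicate, black bars the fitted change with its 95% interval, and asterisks an adjusted p under 0.05. All 6 points lie right of 0 for the 24 rising genes and left of 0 for CEP152, RN7SK and ENSG00000274015.

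Just outside the threshold stood 10 genes with limma adjusted p-values from 0.0513 to 0.0752, and the next gene was at 0.256. They were P4HB, CRELD1, CRELD2, DDIT3 and MYDGF, described with their groups, RN7SK and ENSG00000274015 with negative changes, and 3 others. PPIB, the ER cyclophilin that speeds proline isomerisation, had 468.12 to 575.4 FPKM in WT and 746.04 to 1483.29 in the knockouts (0.89, limma adjusted p = 0.0548). NANS, which makes the sialic acid precursor, had 97.22 to 113 and 144.24 to 222.9 (0.70), and SEPSECS-AS1, a long noncoding RNA, 0.25 to 1 and 2.55 to 5.09 (2.30). All 3 kept the groups apart. Each of the 10 was called under some of the alternative fits described below, from 2 of them (MYDGF) to 8 (P4HB).

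Falls were few. CEP152, a scaffold of centriole duplication, was the only gene called lower. Its FPKM was 8.22, 27.08 and 22.12 in WT, 4.33, 10.64 and 8.05 under the HRD1 KO label and 4.31, 13.47 and 8.57 in SEL1L KO. WT replicate 1 was below 3 knockout libraries, so the groups overlapped, while within a replicate number each knockout was at 0.367 to 0.532 of WT. The log2 fold change was -1.16 (SE 0.15, limma adjusted p = 0.0212), a call lost in 9 of the 12 fits that left out libraries. Over all genes, 4.98% had all 6 knockout libraries below the WT library of the same number, and 2.67% had them above it. Those with all 6 below all 3 WT libraries made up 0.608%, and those with all 6 above 0.589%. These shares are from unscaled values and were not recounted after scaling. The median change over all genes was -0.059 unscaled and -0.017 with median-ratio scaling. The 7 genes of negative change next in order of p were not called. RN7SK, the noncoding RNA that holds the elongation factor P-TEFb inactive, had 286.59, 779.21 and 177.67 in WT and 63.14 to 195.71 in the knockouts, a change of -1.60 (limma adjusted p = 0.0593). ENSG00000274015, a long noncoding RNA on chromosome 14, had 8.82, 7.14 and 8.39 in WT and 1.1 to 2.95 in the knockouts, with no overlap and a change of -2.04 (limma adjusted p = 0.0596). The histone genes H2AC7 and H2BC5 had changes of -1.74 and -1.02, and CKAP2L, PLAT and LAMB2 had -0.65, -0.81 and -0.69, with adjusted p-values from 0.256 to 0.329 by limma. RN7SK and most replication-dependent histone mRNAs lack a polyA tail, and the libraries were enriched for polyA. Whether the H2BC5 transcripts counted here lack the tail was not looked at. Whether that enrichment differed between groups, and whether it bears on the genes above, was not tested.

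Other steps of the secretory pathway had no called member. The list of the translocon, signal recognition particle, its receptor and signal peptidase, which bring new chains into the ER, had 24 genes tested. Of these, 0 were called, 12 had an unadjusted p under 0.05 upward and 0 downward, and the median was 0.30. Over all genes tested, 2.22% had such a p upward and 2.69% downward. SEC61A1, the pore of the translocon, had 85.99, 79.38 and 103.17 FPKM in WT and 106.53 to 203.41 in the knockouts, a change of 0.65 (limma adjusted p = 0.316). SEC61B, its partner, had 216.55 to 249.67 in WT and 267.82 to 448.8 in the knockouts (0.58, limma adjusted p = 0.448). Both kept the groups apart but did not pass the test. Oligosaccharyltransferase, which attaches N-glycans, had 12 members tested with 5 such upward p-values and a median of 0.17, led by MAGT1 at 0.64 and OSTC at 0.56. The COPII coat and its cargo receptors, which carry folded proteins out of the ER, had 19 with 5 upward and the same median of 0.17. SEC24D, a cargo-binding COPII subunit, had 10.9, 12.77 and 12.6 in WT and 15.96 to 46.34 in the knockouts, a change of 1.15 (limma adjusted p = 0.274).

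The sensors and transcription factors of the UPR were less uniform. Of 13 members tested, 0 were called, and the median was -0.00. An unadjusted p under 0.05 was found upward in 3 (2.22% of all genes tested) and downward in 0 (2.69%). XBP1, the factor whose mRNA IRE1 splices, had 215.06, 182.69 and 132.68 in WT, 113.73, 399.94 and 364.35 under the HRD1 KO label and 294.7, 356.15 and 427.2 in SEL1L KO. In replicate 1 the library labelled HRD1 KO was below its WT library while the other 5 knockout libraries were above theirs, and the change of 0.80 (SE 0.34) was not called. It ran from 0.41 without WT replicate 3 to 1.31 without WT replicate 1, where the limma adjusted p was 0.0688. Gene-level FPKM does not separate spliced from unspliced XBP1. EIF2AK3, which encodes PERK, had a change of 0.36, ATF6 of 0.05 (-0.03 without WT replicate 2) and ERN1, which encodes IRE1, of -0.26. None of these passed.

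Genes of the ATF4 and CHOP arm, which lies downstream of PERK, had no called member. Of 18 tested, 0 were called, 2 had an unadjusted p under 0.05 in each direction, and the median was 0.09. Over all genes tested, 2.22% had such a p upward and 2.69% downward. DDIT3, which encodes CHOP, was nearest to the threshold. It had 34.84, 22.99 and 8.21 FPKM in WT, 52.14, 48.23 and 14.42 under the HRD1 KO label and 72.96, 62.58 and 15.62 in SEL1L KO. Replicate 3 was low in each group, so the groups overlapped although each knockout exceeded the WT library of its number, and the change was 0.98 (SE 0.16, limma adjusted p = 0.0596). ATF4 itself had a change of 0.23. GDF15, a secreted stress cytokine, had 5.52, 8.22 and 0.19 in WT, 1.68, 5.07 and 0 under the HRD1 KO label and 0.85, 2.32 and 0 in SEL1L KO, all below the WT library of the same number. Its change of -1.63 was not called (limma adjusted p = 0.547). TRIB3 and CHAC1, ATF4 and CHOP targets, had 0.20 and 0.30. Amino acid synthesis enzymes, 16 tested, had a median of 0.16, with 3 at an unadjusted p under 0.05 upward and 0 downward. The tRNA synthetases, 20 tested, had a median of 0.14, with 4 upward and 0 downward. Of the 20, 6 had all 6 knockout libraries above the WT library of the same number (2.67% of all genes tested did). From either list 0 were called.

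**Figure D4:**
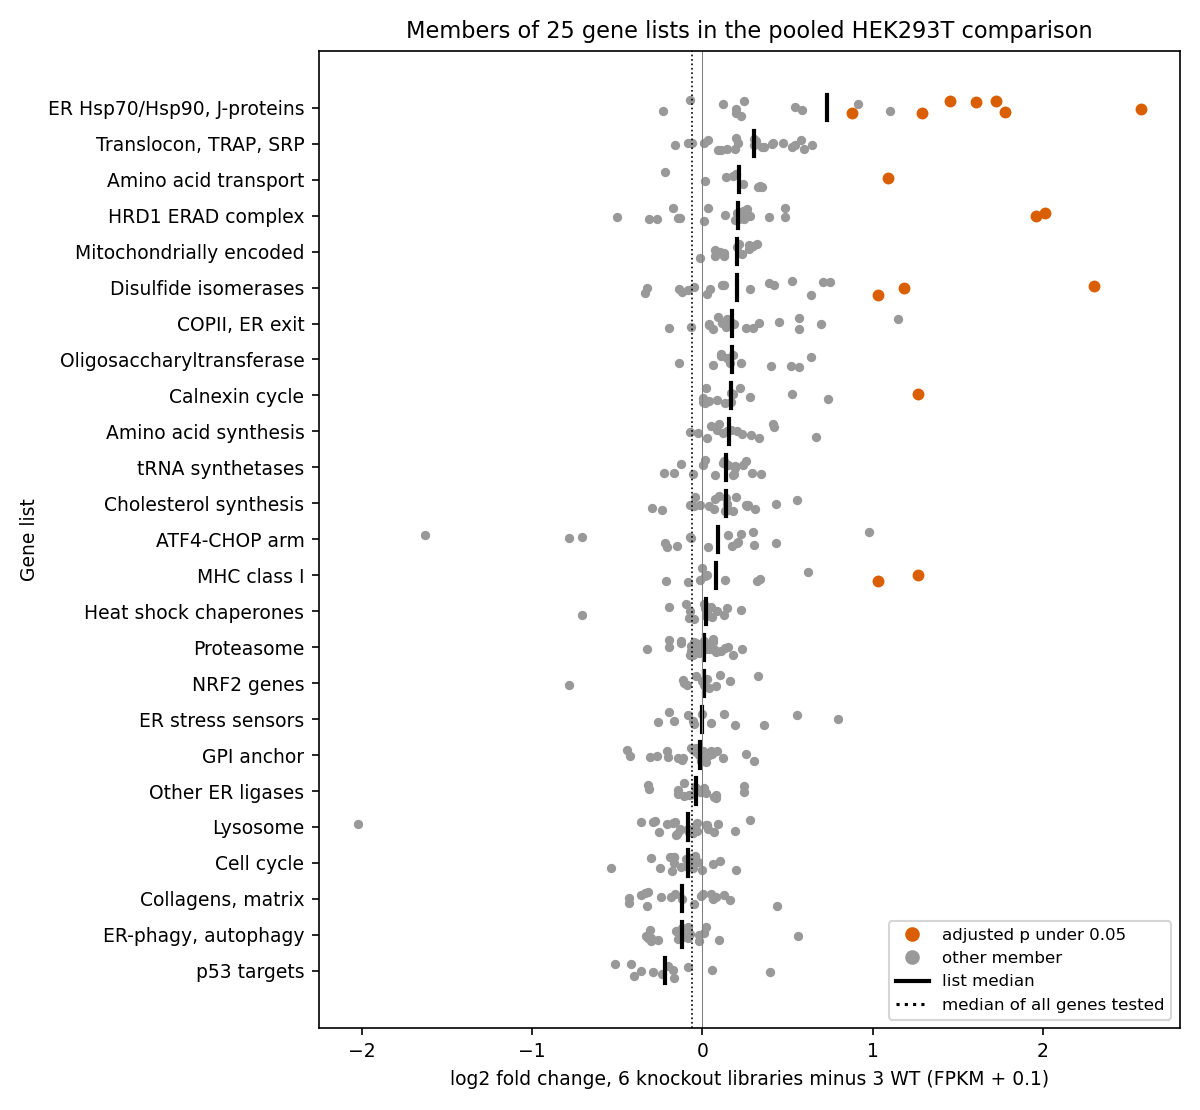
Log2 fold change of the 6 knockout libraries against 3 WT (x axis) for each tested member of 25 gene lists, sorted by list median (black bar), with called members in orange and the median of all genes tested, -0.06, as a dotted line. The called members fall in the ER chaperone, disulfide isomerase, HRD1 complex, calnexin cycle, amino acid transport and class I lists, and CALR and PDIA3 appear in 2 lists each.

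The lists of other cell functions that follow had no called member. Over all genes tested, 2.22% had an unadjusted p under 0.05 upward and 2.69% downward. Among 17 cytosolic heat shock chaperones the median was 0.02, and 0 members had an unadjusted p under 0.05. HSPA1A, the inducible cytosolic Hsp70, ran from 0 to 2.82 FPKM in WT and from 0.13 to 1.08 in the knockouts. The 32 proteasome genes tested had a median of 0.01, with 1 member, PSMD11, at an unadjusted p under 0.05 (-0.33). The 13 NRF2 genes had a median of 0.01, the 12 p53 targets -0.22, the 21 genes of ER-phagy and autophagy -0.12, the 25 lysosome genes -0.08 and the 24 cell cycle genes -0.08. HMOX1, the haem oxygenase driven by NRF2, had 14.13, 24.5 and 14.47 in WT and 7.07 to 14.14 in the knockouts (-0.78, not called). GPI anchor genes, of which 28 were tested, had a median of -0.01, and cholesterol synthesis genes, 23 tested, of 0.14, with 3 at an unadjusted p under 0.05 upward and 0 downward. Matrix and other extracellular genes, 19 tested, had a pooled median of -0.12, but 0.16 under the HRD1 KO label and -0.36 in SEL1L KO, a difference that was not tested over the list. Of the 13 genes encoded by mitochondrial DNA, 4 had an unadjusted p under 0.05 upward, with a median of 0.20. Their summed share of all FPKM was 9.11% to 14.8% in WT, 11.7% to 18.7% under the HRD1 KO label and 9.11% to 14.5% in SEL1L KO.

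Each knockout was also compared with WT in a model of 3 groups, where the same WT libraries serve both comparisons. The libraries labelled HRD1 KO had 25 genes called (0.158%), 24 of them higher, and SEL1L KO had 12 (0.0760%), all higher. Because the WT libraries are shared and the 20 genes were chosen on the pooled change, the values of each knockout are given side by side as a description. Of the 20, 18 were called under the HRD1 KO label and 12 in SEL1L KO, while 2, SLC1A4 and LINC02761, were called in neither. HSPA5 had changes of 2.80 under the HRD1 KO label and 2.35 in SEL1L KO, PDIA4 of 2.59 and 2.02, HERPUD1 of 2.08 and 1.83, DERL3 of 1.86 and 2.16, and CEP152 of -1.23 and -1.09.

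The difference between the knockouts was tested directly. The pooled comparison counts a difference between the knockouts as spread, so genes that differ between them were less likely to be among its 20 calls, and the counts over the 20 are a description. Of the 20, 0 differed between the knockouts at an adjusted p under 0.05 by limma (0.0127% of the genes tested did), and 6 had an unadjusted p under 0.05. These 6, HSPA5, PDIA4, HSP90B1, HYOU1, CALR and CDK2AP2, stood higher with the HRD1 KO label, by 0.44, 0.57, 0.44, 0.56, 0.45 and 0.44 on the log2 scale, with adjusted p-values from 0.474 to 0.602. For PDIA4 the 3 libraries labelled HRD1 KO (589.43 to 734.01) lay above the 3 SEL1L KO libraries (380.54 to 484.01). Of the 20, 16 had a positive difference (HRD1 KO minus SEL1L KO). The others were DERL3 at -0.30 (SE 0.19), MANF at -0.13, LINC02761 at -0.23, and CEP152, which was lower in both, at -0.14.

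Over all genes, 2 differed between the knockouts. IFITM2, an interferon-induced membrane protein that restricts virus entry, had 72.84, 55.87 and 14.08 FPKM under the HRD1 KO label, 11.78, 11.02 and 4.44 in SEL1L KO, and 30.8, 29.8 and 10.93 in WT. In each replicate number WT lay between the knockouts, and the difference between them was 2.20 (SE 0.20, limma adjusted p = 0.0255). HSBP1L1, a small relative of a heat shock factor binding protein, was ordered the other way, at 3.14, 2.19 and 1.51 under the HRD1 KO label, 18.72, 13.49 and 6.03 in SEL1L KO, and 6.5, 6.6 and 2.34 in WT (-2.35, SE 0.23, limma adjusted p = 0.0255). The count of 2 rests on few libraries, since 0 genes were called different without replicate 1 of either knockout or of WT and 84 without replicate 3.

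The same-named mouse genes were read in BAT, where the 5 knockout libraries came from Sel1l flox/flox;Ucp1-Cre (3) or Hrd1 flox/flox;Ucp1-Cre (2) mice and the 3 WT libraries from WT mice. All the mice had the C57BL/6J background and were aged 12 weeks. Ucp1-Cre acts in brown adipocytes, so other cells of the tissue keep the gene. Syvn1 was at 14.05 and 13.77 FPKM in the 2 libraries labelled Hrd1 KO and at 5.2 to 5.65 in WT, so this label too was not checked by the transcript. Of the 19 genes called higher in HEK293T, 14 had a same-named mouse gene that was tested. All 14 had their 5 knockout libraries above all 3 WT libraries, which 15.0% of the 12473 mouse genes did. At the adjusted p under 0.01 used for BAT, 6 of the 14 were called higher (0.168% of all genes were), namely Calr, Derl3, Manf, Pdia3, Pdia6 and Sdf2l1, and 0 lower (0.0160% were). The median log2 change of the 14 was 2.40, against 0.22 over all genes. After median-ratio scaling these were 2.17 and -0.01, all 14 remained above 0 (48.9% of all genes were), and 2 of the 14, Derl3 and Sdf2l1, were called. Derl3 was below an FPKM of 1 in every WT library, so it was tested only through its knockout values and its calls are a description.

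SEL1L KO replicate 1 stood apart in BAT. Hspa5 was at 3597.68 there, at 595.87 to 1050.67 in the other 4 knockout libraries and at 115.96 to 123.47 in WT. Without that library 11 of the 14 were called and their median was 2.14. Without any 1 WT library 0 of the 14 were called, with all 14 changes still above 0. Derl3 had the largest mouse change of the 14, from 0.22 to 0.33 in WT to 9.47 to 69.34 in the knockouts. Its size depends on the amount added before the logarithm, and it ran from 4.38 to 6.44 in log2 over the alternative fits. Cdk2ap2 had the smallest, from 37.06 to 46.65 to 56.19 to 97.34. The values of the 2 tissues were tested apart, and their difference was not tested.

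**Figure D5:**
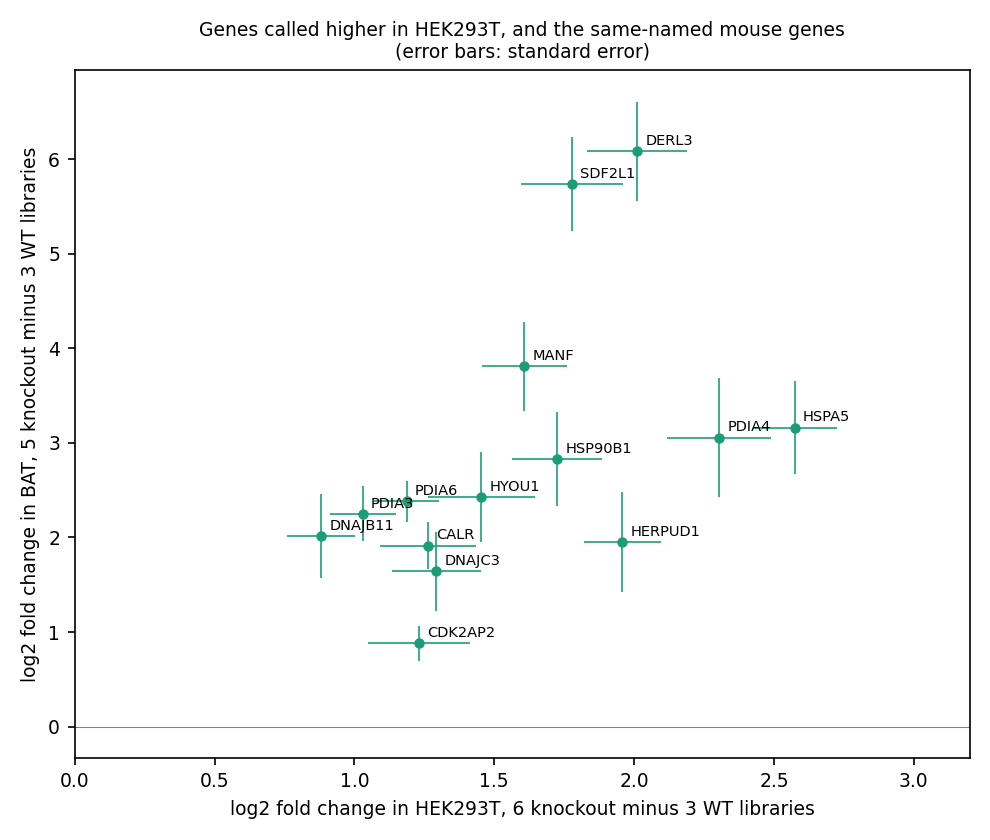
Log2 fold change in HEK293T (x axis, 6 knockout against 3 WT libraries) and of the same-named gene in BAT (y axis, 5 knockout against 3 WT libraries, unscaled) for 14 genes called higher in HEK293T, with standard errors as bars. All 14 lie above 0 on both axes, with DERL3 and SDF2L1 highest in BAT.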

How the data were processed

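PolyA-enriched RNA of 17 libraries was sequenced. By the study's methods the authors ran paired-end reads of 151 cycles on one flow cell, mapped the HEK293T reads to GRCh38 and the BAT reads to GRCm38 with STAR 2.7.8a, and quantified genes with RSEM 1.3.3; the annotation release is not given in the sources used here. The deposited values are FPKM per gene and library, to 2 decimals, with no scaling between libraries stated. RSEM divides reads shared by several genes by estimate, and FPKM makes each value depend on the library's most abundant genes. The authors' own test used DESeq2 on count estimates; a count test was not run here because FPKM are not counts.

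A gene was tested where 3 HEK293T (or 2 BAT) libraries reached an FPKM of 1. R 4.3.3 and limma 3.58.1 fitted log2 values after adding 0.1, using a variance trend and Benjamini-Hochberg adjustment. This scale understates the change of low genes. HEK293T had the replicate number as a block, and BAT had none. Libraries with the same number deviated together from their group means (r 0.216 to 0.485 over 9 pairs, against -0.396 to 0.027 over the 18 other pairs), so the numbers pair the HEK293T libraries. Replicates within a group correlated at 0.871 to 0.942 and each was counted as a sample. The pooled fit was tested on simulated data with independent noise and the same effect in both knockouts. Such data follow the assumptions of the fit and do not show how the real libraries vary. Gene positions are from GENCODE 44, promoters from RefSeq, and the pseudogene was aligned with blastn 2.17.0. Plots used matplotlib 3.10.9.

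The genes named are SEL1L and SYVN1, the 12 largest called rises with all 6 pairs on one side, the 8 falls of smallest p (fewer than 5 were called), up to 4 members of smallest p of each list, and up to 6 genes called different between the knockouts. The other called genes, those just outside the threshold and further list members were named after their values were seen. The comparison, the members and the lists were chosen with earlier results of these data known.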

Additional observations from a re-analysis of the deposited data

Results flagged for a closer look

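PPIB, the ER cyclophilin B, had 1 knockout library far from the other 5. It stood at 1483.29 FPKM in the library labelled HRD1 KO replicate 1 and at 746.04 to 956.17 in the other 5 knockout libraries, against 468.12 to 575.4 in WT. On the log2(FPKM + 0.1) scale the gap was 0.639 of the range of the 6, above Dixon's limit for 6 values. Of 37 genes looked at in this way it was the only one, and chance marks about 1 in 20. Its pooled log2 change was 0.89 (limma adjusted p = 0.0548).

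IFITM2 and HSBP1L1 differed between the knockouts in opposite directions, by 2.20 and -2.35 in log2 (HRD1 KO minus SEL1L KO), each with a limma adjusted p of 0.0255 for the difference itself. The sign held in 3 of 3 replicate numbers for both genes. They were chosen on these same values, so this is a description and not further support.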

How the results depend on the processing

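All 19 genes called higher kept their direction under each alternative in which they were tested. Among the other genes whose pooled change is printed, ATF6 (0.05) changed sign, to -0.032 without WT replicate 2 or without replicate 2 altogether and -0.035 without HRD1 KO replicate 3, and ran from there to 0.16 without SEL1L KO replicate 3. HSPA5, HERPUD1, SLC22A31 and PDIA4 were called under all 22 alternatives. ENSG00000262692 was called under the 21 that tested it, but it was listed at 0 in WT and was tested only through its knockout values. DERL3 was called under 21 of 22, CEP152 under 11 and SLC1A4 under 5. Against 19 higher and 1 lower, the fit with no replicate block called 14 and 0, and all 14 were among the 19. Without the variance trend 7 were higher and 2 lower. More than 19 were higher with library weights (27), median-ratio scaling (26), quantile normalization (24), the 3-group model (22) and an FPKM of at least 5 (22). A pseudocount of 1 gave 19, a pseudocount of 0.01 gave 17 and no filter 14. The 3-group model, a pseudocount of 1, an FPKM of at least 5 and quantile normalization each gave 2 lower, no filter 10, library weights 3, and an adjusted p under 0.1, chosen after seeing the data, 3. Leaving out 1 library or 1 replicate number gave 7 to 20 higher and 0 to 2 lower. The fewest came without replicate 3, where 7 were higher, then without WT replicate 3 or either of the other numbers (10 each), HRD1 KO replicate 2 or 3 or SEL1L KO replicate 3 (11 each), and WT replicate 1 or 2 (12 each). The cause was not tested.

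The count differing between the knockouts, 2, became 0 with no replicate block, with no filter or without the variance trend, 4 with a pseudocount of 1 and 5 with library weights. It ran from 0 to 84 when libraries were left out, with 84 without replicate 3, 30 without replicate 3 of either knockout alone, and 0 without replicate 1 of either knockout or of WT. In BAT, 21 higher and 2 lower became 9 and 1 after median-ratio scaling and 8 and 0 with a replicate block, and 4 were lower with a pseudocount of 1. Leaving out 1 BAT library gave 0 to 168 higher and 0 to 29 lower, the highest of both without SEL1L KO replicate 1. The unknown depth and 3 WT libraries limit what could be called, and genes of low FPKM are the least precise.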
